A study of Homo sapiens with 6 samples.

Results

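The WNT pathway genes described here are the WNT ligands, their frizzled receptors, the secreted SFRP and DKK antagonists, the R-spondins with their LGR receptors, and a set of common target and feedback genes. They were chosen by symbol, with no use of their values, and 53 of the 23615 rows of the deposited gene table met the rule. Of these, 19 were WNT ligands, 10 frizzleds, 4 SFRPs, 4 DKKs, 4 R-spondins, 3 LGR receptors and 9 target or feedback genes (AXIN2, LEF1, TCF7, SP5, NKD1, NKD2, NOTUM, RNF43 and ZNRF3).

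The mRNA came from H1 cells, an established line of human embryonic stem cells (hESCs), on day 10 of ectoderm specification. Both groups received 0.5 nM BMP-4, a growth factor that turns hESCs away from a neural fate, for 3 days, and medium with 10% fetal calf serum from day 4. The DAPT group also received 5 μM DAPT, dissolved in ethanol, and the ethanol group received the vehicle. DAPT inhibits γ-secretase, the protease that frees the intracellular domain of Notch receptors and that also cleaves other membrane proteins. There were 3 libraries per treatment, all from 1 cell line, and the sources do not say whether the triplicates were separate cultures. The comparison asks how the transcriptome of cells under epidermal specification differs when DAPT is present.

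Levels are in FPKM, fragment counts scaled by transcript length and by all mapped fragments, so that genes of different length can be set side by side. The table holds 1 pooled FPKM value per treatment and none per library. No difference could therefore be set against the spread between replicates, no test was made, and the values below describe these pooled libraries only. A gene is called higher or lower here when its FPKM differed at least 2-fold and reached 1 FPKM in at least 1 treatment. The ratio is given as DAPT over ethanol on the log2 scale, with no pseudocount. The 2 sheets of the workbook hold equal values but swap the names of the treatments, and all 1417 rows of the shorter sheet carry the same values as the sheet of all genes. The naming of the shorter sheet was used. Under it the pluripotency factors POU5F1 (47.3 FPKM with DAPT, 240 with ethanol) and NANOG (2.06 and 10.5) were lower with DAPT, and the surface ectoderm factors TFAP2A (21.8 and 7.10) and TP63 (3.88 and 0.546) were higher. These are the directions of the study's own staining and PCR of POU5F1, TFAP2A and TP63. With the other naming every direction below would be turned round.

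WNT proteins are lipid-bearing secreted signals. In the β-catenin branch a WNT joins a frizzled with the co-receptor LRP5 or LRP6, the destruction complex is switched off, and β-catenin enters the nucleus to act with TCF/LEF factors. Other branches run without β-catenin and guide planar polarity and cell movement, with WNT5A and WNT11 as their best known ligands. SFRPs bind WNTs outside the cell, DKK1 and DKK4 block LRP5 and LRP6, and R-spondins acting through LGR receptors keep frizzleds at the cell surface by removing the ubiquitin ligases RNF43 and ZNRF3. In early embryos the β-catenin branch is known for inducing the primitive streak and, later, for its part in neural crest and in skin appendages.

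Among the 53 genes, 41 reached 1 FPKM in at least 1 treatment. Of these 41, 7 were at least 2-fold higher with DAPT (WNT7B, WNT9B, WNT9A, WNT6, WNT10A, FZD6 and SFRP1) and 8 were at least 2-fold lower (WNT11, FZD4, SFRP5, DKK4, RSPO2, LGR5, SP5 and NKD2), with 26 in neither class. Over all 13480 genes at this level, 5.15% were higher and 5.81% lower by the same rule. The median log2 ratio of the 41 was 0.14, beside 0.00065 over all genes, whose quartiles were -0.29 and 0.27. Of the 41 genes, 32 reached 1 FPKM in both treatments, and 4 of those were higher and 4 lower. The other 9 reached it in 1 treatment alone, where a gene is more easily past 2-fold: WNT6, WNT7B, WNT9A and RSPO4 with DAPT, and DKK4, LGR5, NKD2, NOTUM and SFRP5 with ethanol. Low level also goes with more calls across the table. Of all genes with a larger value of 1 to 3 FPKM, 20.4% were past 2-fold, and of those at 3 to 10 FPKM 10.7%. The WNT pathway genes numbered 14 and 16 in these ranges, of which 5 and 8 were past 2-fold.

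**Figure D1:**
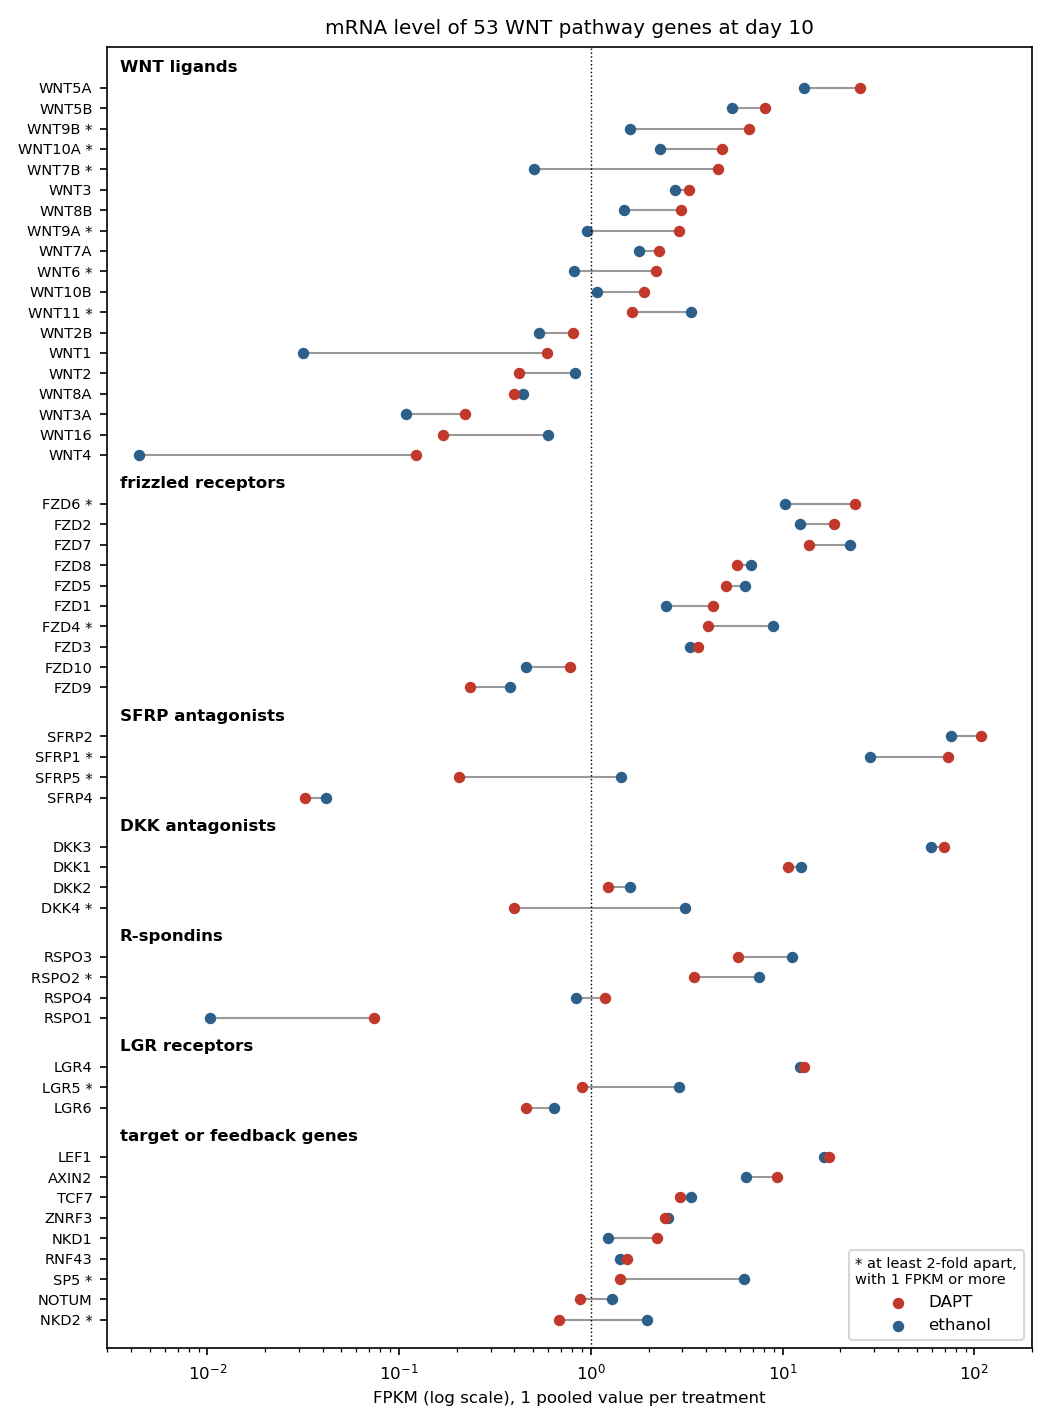
FPKM of each of the 53 genes with DAPT (red) and ethanol (blue), 1 pooled value per treatment on a log axis, grouped by role, with an asterisk for genes at least 2-fold apart that reached 1 FPKM (dotted line). Most WNT ligands sit further right with DAPT, with WNT7B at 4.59 and 0.507 FPKM, and DKK4, SFRP5, LGR5, SP5 and NKD2 sit further left.

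The WNT ligands as a family were higher with DAPT. Their summed level was 69.4 FPKM with DAPT and 37.5 with ethanol, a ratio of 1.85, and without WNT5A, the most abundant, the ratio was 1.79. Of 12 ligands at or above 1 FPKM, 5 were higher, 1 was lower and 6 were in neither class. Their median log2 ratio was 0.98, and 11 of the 12 had a ratio above 0, while 13 of the other 29 genes did. By the same rule 5.15% of all genes were higher and 5.81% lower. WNT6, WNT7B and WNT9A reached 1 FPKM with DAPT alone, where the floor favours a higher ratio, and no ligand did so with ethanol alone. Of the ligands under 1 FPKM, WNT1, WNT2B, WNT3A and WNT4 had more FPKM with DAPT, and WNT2, WNT8A and WNT16 had less.

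WNT7B (chr22:46316248-46373008, hg19), a β-catenin ligand needed for lung growth in mice, had 4.59 FPKM with DAPT and 0.507 with ethanol. Its log2 ratio of 3.18 was the largest of the 41 and the 188th in size of the 13480 genes. Ranked ahead of it are all 110 genes at 0 in 1 treatment, whose ratio has no finite value. WNT7B made up 6.61% of the summed ligand level with DAPT and 1.35% with ethanol. WNT9B (chr17:44928968-44954437), needed in mice for kidney tubules and for closure of the upper lip, followed at 6.66 and 1.59 FPKM, 4.18-fold higher. WNT9A (chr1:228109165-228135676), known for its part in joint formation, had 2.89 and 0.960 FPKM, a log2 ratio of 1.59. Its locus holds the microRNA gene MIR5008, listed at 0 in both treatments.

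WNT6 and WNT10A, ligands expressed in embryonic surface ectoderm, lie next to each other on chromosome 2. WNT6 (chr2:219724546-219738954) had 2.19 and 0.819 FPKM, a log2 ratio of 1.42. WNT10A (chr2:219745255-219758651), whose loss causes a human ectodermal dysplasia of teeth, hair and nails, had 4.86 and 2.30 FPKM, a log2 ratio of 1.08. These 5 ligands were therefore present at a few FPKM with DAPT, and 3 of them were under 1 FPKM with ethanol.

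The most abundant ligand was WNT5A, the main ligand of the branch without β-catenin. It had 25.4 FPKM with DAPT and 12.9 with ethanol, 1.97-fold higher and so just under the 2-fold line. WNT8B, a forebrain ligand, was as close to it at 2.94 and 1.48 FPKM, a ratio of 1.98. WNT10A and WNT11, at 2.11-fold higher and 2.03-fold lower, were the ligands just past the line. WNT5B, the close relative of WNT5A, had 8.08 and 5.47 FPKM, and together they held 48.3% of the summed ligand level with DAPT and 49.0% with ethanol. So the share of this pair was alike in both treatments, and the higher sum came from them and the rest in about the same proportion.

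WNT11, the other well-known ligand without β-catenin, was the one ligand at or above 1 FPKM that was lower. It had 1.63 FPKM with DAPT and 3.32 with ethanol, and its share of the ligand sum was 2.35% against 8.86%. WNT10B, WNT7A and WNT3 were in neither class. WNT10B, which promotes bone formation, had 1.90 and 1.08 FPKM. WNT7A, the ligand of dorsal limb ectoderm, had 2.26 and 1.78. WNT3, which mice need to form the primitive streak, had 3.27 FPKM with DAPT and 2.75 with ethanol, a log2 ratio of 0.25.

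The other 7 ligands stayed under 1 FPKM in both treatments and were not called. They were WNT1, WNT2, WNT2B, WNT3A, WNT4, WNT8A and WNT16, between 0.00438 and 0.831 FPKM. WNT1, made in the dorsal neural tube, had 0.591 FPKM with DAPT and 0.0316 with ethanol, and WNT4 0.123 and 0.00438. WNT16 went the other way, with 0.169 and 0.598 FPKM. WNT3A, made in the late primitive streak and tail bud, had 0.220 and 0.109.

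Several WNT genes lie in old pairs on the chromosomes, and 4 such pairs had no other row between them. The gap was 6.30 kb between WNT6 and WNT10A, 6.59 kb between WNT10B and WNT1, 32.9 kb between WNT3 and WNT9B and 59.0 kb between WNT9A and WNT3A. All 8 of these genes had a higher FPKM with DAPT, though WNT1 and WNT3A were under 1 FPKM. In the pair WNT6 and WNT10A both genes were past 2-fold, and in the pair WNT3 and WNT9B only WNT9B was. Across the table, 4865 adjacent pairs lay under 60 kb apart with both genes at or above 1 FPKM. Of the 299 such pairs with at least 1 gene higher, both were higher in 21, or 7.02%.

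**Figure D2:**
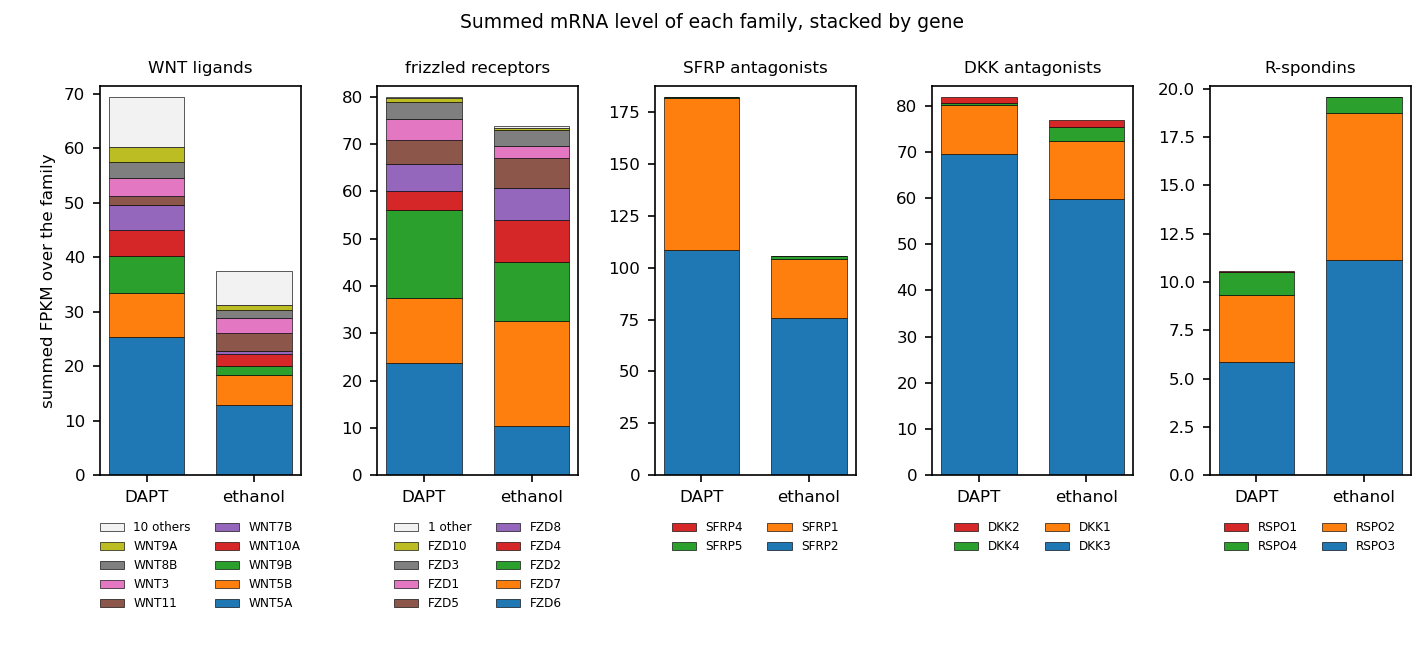
Summed FPKM of 5 families with DAPT and ethanol, each bar stacked by gene, with the vertical axis of each panel starting at 0 and on its own scale. The WNT ligand and SFRP sums are larger with DAPT (69.4 against 37.5 and 182 against 106 FPKM), the R-spondin sum is smaller (10.6 against 19.6), and the frizzled and DKK sums are close.

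Frizzled mRNA was about as abundant in both treatments, but its makeup differed. The 10 frizzleds summed to 79.9 FPKM with DAPT and 73.7 with ethanol, and the 8 at or above 1 FPKM had a median log2 ratio of -0.05. FZD6 (chr8:104310661-104345094), which orients hair in mouse skin and is mutated in human nail dysplasia, had 23.8 and 10.3 FPKM, 2.30-fold higher. FZD4 (chr11:86656717-86666440), the receptor that also binds norrin in retinal vessels, had 4.09 and 8.95 FPKM, 2.19-fold lower. FZD7, the most abundant frizzled with ethanol and a known receptor of undifferentiated hESCs, had 13.7 and 22.4, a log2 ratio of -0.71.

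The most abundant frizzled therefore was FZD6 with DAPT and FZD7 with ethanol. FZD6 made up 29.7% of the frizzled sum with DAPT and 14.0% with ethanol, and FZD7 17.1% and 30.3%. FZD2, which takes part in WNT5A signalling, had 18.6 and 12.3 FPKM, and FZD2 and FZD6 together held 52.9% of the sum with DAPT and 30.7% with ethanol. FZD1 had 4.32 and 2.48 FPKM, FZD3, a receptor of the planar polarity branch, 3.63 and 3.30, FZD5 5.09 and 6.34, and FZD8 5.77 and 6.85. FZD9 and FZD10 stayed under 1 FPKM, at 0.234 and 0.378 and at 0.781 and 0.462. No frizzled other than FZD6 and FZD4 was past 2-fold.

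The secreted antagonists did not move as a block. SFRP1 (chr8:41119476-41166990) had 73.4 FPKM with DAPT and 28.6 with ethanol, 2.56-fold higher. SFRP2, the most abundant of all 53 genes, had 109 and 75.8, a log2 ratio of 0.52. These WNT-binding proteins made up 99.9% of the SFRP sum with DAPT and 98.6% with ethanol, so the sum of 182 against 106 FPKM was theirs. SFRP5 (chr10:99526508-99531756), a gene of the visceral endoderm in mouse embryos, had 0.207 and 1.44 FPKM, 6.96-fold lower. SFRP4 was under 0.05 FPKM in both treatments.

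DKK4 (chr8:42231586-42234674), an LRP5 and LRP6 blocker that is itself induced by β-catenin, had 0.399 FPKM with DAPT and 3.10 with ethanol. Its log2 ratio of -2.96 was the lowest of the 41 genes. DKK1, the main secreted blocker of LRP6 and also a WNT target, was in neither class at 10.7 and 12.4 FPKM. DKK2 had 1.23 and 1.61 FPKM. DKK3, a family member that does not bind LRP6 like the others, had 69.5 and 59.8 and made up 85.0% of the DKK sum of 81.8 FPKM with DAPT and 77.7% of the 77.0 with ethanol. Among the SFRPs and DKKs the genes called lower were thus those of low level, and the abundant ones were higher or within 2-fold.

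R-spondin mRNA was lower with DAPT, with a sum of 10.6 FPKM against 19.6. RSPO2 (chr8:108911544-109095913) had 3.47 and 7.57 FPKM, 2.18-fold lower. RSPO3 (chr6:127440048-127518184), the most abundant, had 5.85 and 11.1, 1.91-fold lower and so not past the line. RSPO4, which is mutated in people born without nails, had 1.19 and 0.833 FPKM, and RSPO1 0.0741 and 0.0104. LGR5 (chr12:71833813-71978621), an R-spondin receptor, a WNT target and a marker of several adult stem cells, had 0.903 and 2.88 FPKM, 3.19-fold lower. LGR4, the broadly expressed receptor, was at 13.0 and 12.3 FPKM, a log2 ratio of 0.07, and made up 90.5% of the LGR sum with DAPT and 77.8% with ethanol. LGR6 had 0.457 and 0.645.

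**Figure D3:**
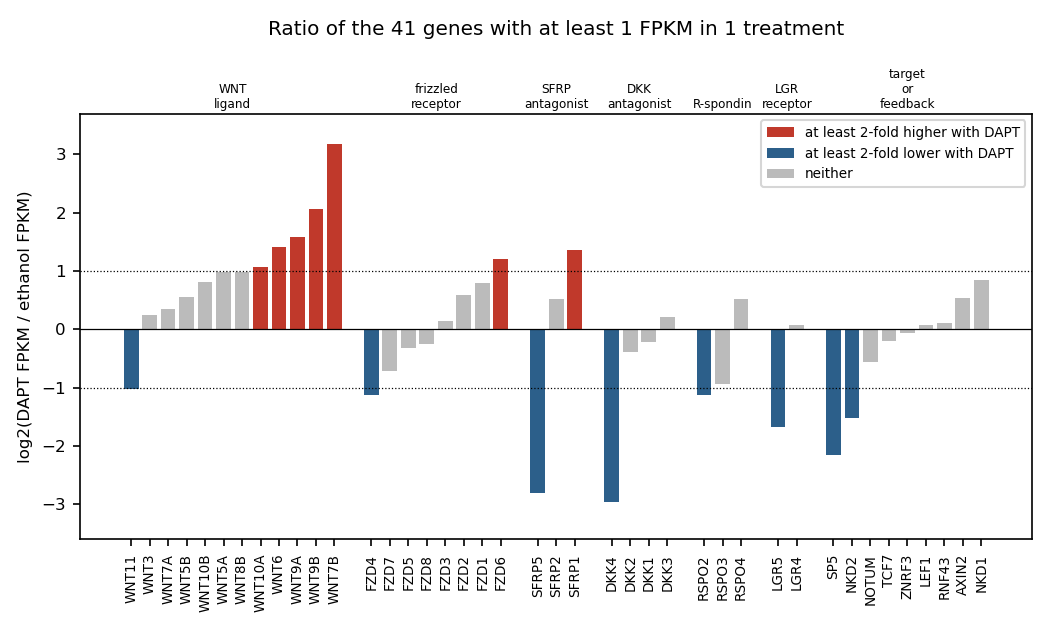
Log2 ratio of DAPT FPKM to ethanol FPKM for the 41 genes with at least 1 FPKM in 1 treatment, grouped by role, with dotted lines at 2-fold. Bars of WNT ligands point upward except WNT11 at -1.02, and the lowest bars are DKK4 at -2.96 and SFRP5 at -2.80.

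Of the 9 target and feedback genes, 0 were at least 2-fold higher with DAPT. With 5.15% of all genes higher, 0 of 9 does not set these genes apart. SP5 and NKD2 were lower, as were 5.81% of all genes, 7 were in neither class, and the median log2 ratio was -0.06. SP5 (chr2:171571857-171574498), a zinc finger repressor and a direct target of β-catenin, had 1.41 FPKM with DAPT and 6.27 with ethanol, 4.43-fold lower. NKD2 (chr5:1009077-1038927), which binds dishevelled and dampens the signal, had 0.687 and 1.97 FPKM, a log2 ratio of -1.52. Its paralogue NKD1 had a ratio in the other direction, at 2.22 and 1.23 FPKM.

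AXIN2, the scaffold protein widely used as a readout of the β-catenin branch, had 9.35 FPKM with DAPT and 6.45 with ethanol, a log2 ratio of 0.54. LEF1 and TCF7, DNA-binding partners of β-catenin, had 17.4 and 16.4 FPKM and 2.92 and 3.34 FPKM. The ubiquitin ligases RNF43 and ZNRF3 had 1.54 and 1.43 FPKM and 2.43 and 2.54 FPKM. NOTUM, an enzyme that strips the lipid from WNT proteins, had 0.881 and 1.29 FPKM. The 9 genes thus held values on both sides of 0, with AXIN2 and NKD1 above it and SP5 and NKD2 below. LEF1, RNF43 and ZNRF3 overlap other rows, among them SUPT4H1 at 58.4 and 59.0 FPKM for RNF43, and how fragments were divided between such rows is not given in the sources used here.

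Of the 53 genes, 35 had a promoter in the RefSeq table (250 bases before to 50 after a start, build GRCh38.p14), with 42 windows in all. CTTTGAT on either strand (ATCAAAG on the other), taken as the core of TCF/LEF sites, was in 1 of them, SP5, and in 2.62% of all 35116 windows. Other forms of the site were not searched, so further sites may lie in the SP5 window and in the others. The SP5 window is shown because it alone held the core, and it was not picked by the ratio of SP5. Of the 9 target and feedback genes, AXIN2, NKD1, NOTUM and ZNRF3 had no window to search. The window is chr2:170715087-170715386 on the plus strand, and the capitals mark the core, whose first base lies at position -109 from the start.
SP5: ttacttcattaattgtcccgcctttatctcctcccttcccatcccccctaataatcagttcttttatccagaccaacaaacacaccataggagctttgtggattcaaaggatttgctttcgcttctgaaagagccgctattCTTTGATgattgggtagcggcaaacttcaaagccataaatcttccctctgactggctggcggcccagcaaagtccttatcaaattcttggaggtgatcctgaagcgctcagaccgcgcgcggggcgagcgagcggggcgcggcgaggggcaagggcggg

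The core of RBPJ sites was also searched, since RBPJ is the DNA-binding partner of the Notch intracellular domain. TGGGAA on either strand (TTCCCA on the other) was in windows of 9 of the 35 genes and in 24.0% of all windows. In the SP5 window the cores do not overlap. Of the genes past 2-fold that had a window, it was in 2 of 4 higher (WNT9A and WNT9B) and in 2 of 4 lower (NKD2 and SP5). The stretches of 30 bases around it are shown on the gene's strand, with the core in capitals, for the 3 genes whose flanks lie inside the window. They are chr5:1008695-1008724, chr2:170715110-170715139 and chr17:46851510-46851539 on the plus strand, with the first base of the core at -95, -215 and -61. Such matches are letters in a window, and binding was not measured.
NKD2: ggggctccaggcTGGGAAcgggggtcgagg
SP5: ttatctcctcccTTCCCAtcccccctaata
WNT9B: caatctcctcctTTCCCAgcgccgcctgcc

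Other genes of the pathway were taken from lists by function. The genes that make WNT proteins ready for release were WLS, the carrier to the cell surface, at 142 and 85.4 FPKM, a log2 ratio of 0.74, and PORCN, the enzyme that adds the lipid, at 1.04 and 0.338 FPKM, 3.07-fold higher. The list of 3 also holds NOTUM, already given, which strips the lipid and so does not make WNT proteins ready for release. Of the 3, PORCN alone was past 2-fold. Of 13 co-receptors, 1 was higher and 1 lower, beside 5.15% and 5.81% of all genes. ROR1, a receptor for WNT5A, had 8.73 and 3.99 FPKM, and GPR124, a co-receptor for WNT7A and WNT7B in brain vessels, had 9.23 and 20.6. LRP5 had 5.55 and 7.51 FPKM and LRP6 7.87 and 9.18, both named after their values were seen. The most abundant co-receptors were GPC3 (147 and 92.1) and PTK7 (109 and 79.6).

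Of the 9 other secreted antagonists at or above 1 FPKM, none was higher and 3 were lower, with a median log2 ratio of -0.84. By the same rule 5.15% of all genes were higher and 5.81% lower. TRABD2B, TRABD2A, SOST and DKKL1 reached 1 FPKM with ethanol alone, where the floor favours a lower ratio, so counts and median rest in part on it. Under the floor, SOSTDC1 had 0.720 FPKM with DAPT and 0.362 with ethanol, and WIF1 0.197 and 0.370. CER1, best known as a blocker of NODAL and BMP proteins, had 2.97 FPKM with DAPT and 12.0 with ethanol. TRABD2B, a protease that cuts WNT proteins, had 0.830 and 2.73, and FRZB, a relative of the SFRPs, 4.07 and 10.2. Of those within 2-fold, the most abundant by their larger value were IGFBP4 at 63.1 and 89.6 FPKM and DRAXIN at 2.62 and 3.73.

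For the genes that act inside the cell the counts stand beside 11.0% of all genes past 2-fold in either direction. Of 17 genes of the destruction complex and dishevelled group, AMER1, a membrane scaffold that holds APC, was the 1 higher, at 1.07 and 0.163 FPKM, and the median log2 ratio was 0.11. The kinases CSNK1A1 (81.8 and 82.0) and CSNK1E (49.6 and 67.0) were the most abundant. Of 15 genes of the nuclear complex, TLE2, a co-repressor, was the 1 lower, at 0.682 and 3.93, and the median was -0.06. CTNNB1, which encodes β-catenin, had 196 and 148 FPKM, a log2 ratio of 0.41, and AES, a short TLE relative, 74.6 and 88.8. Of 12 planar polarity genes CELSR1, a cadherin of the planar polarity branch, was the 1 higher, at 9.16 and 3.00 FPKM, and of the others VANGL2 at 24.1 and 27.9 and PRICKLE1 at 8.37 and 4.70 were the most abundant by their larger value.

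On a further list of 15 genes known as WNT targets in some tissue, which holds LGR5 again, 2 were higher and 3 lower. Their median log2 ratio was -0.24, and over all genes 5.15% were higher and 5.81% lower. CCND1, a driver of the cell cycle, had 29.0 and 5.52 FPKM, 5.26-fold higher, and BMP4 22.7 and 8.57. TDGF1, a co-receptor of NODAL, had 22.6 and 105, T, the brachyury gene of the primitive streak, 0.480 and 2.00, and LGR5 the values above. By their larger value the most abundant within 2-fold were BAMBI (144 and 170) and CD44 (21.2 and 36.3). Several of these genes also mark the cell types that follow.

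The makeup of the cultures by markers differed between the treatments in the same libraries. In bulk RNA, fewer cells of a type and less RNA per cell cannot be told apart. All 7 primitive streak markers at or above 1 FPKM were lower with DAPT (sum over the list 5.95 against 36.1 FPKM), as were all 8 endoderm markers (47.2 against 535) and 5 of 8 pluripotency markers (328 against 759). Of 8 surface ectoderm markers 6 were higher (82.2 against 32.7), of 7 neural crest markers 4 (61.1 against 24.2) and of 8 amnion markers 6 (1062 against 358). Among mesenchyme markers 2 of 8 were higher and 1 lower (1030 against 802). Over all genes 5.15% were higher and 5.81% lower by the same rule. Some markers reached 1 FPKM in 1 treatment alone, where the floor favours a call. These were EOMES, FGF17, GSC, LHX1, T, FOXA2, HNF4A and SOX17 with ethanol, and TP63, KRT5, TFAP2B, PAX3, SOX10 and DCN with DAPT. Of 9 neural tube markers 3 reached 1 FPKM, and 1 of them, PAX6, was higher (2.57 against 1.17 FPKM, with a sum over the list of 47.5 against 54.2). TFAP2A, TFAP2B and SOX2 stand on more than 1 of these lists. No marker of these lists was listed at 0 except NEUROG1, on the neural tube list, at 0 with ethanol and 0.564 FPKM with DAPT. The part of this makeup in the ligand, SP5, DKK4, SFRP5 and LGR5 ratios was not tested. None of 14 housekeeping genes was past 2-fold, and their median log2 ratio was -0.20.

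**Figure D4:**
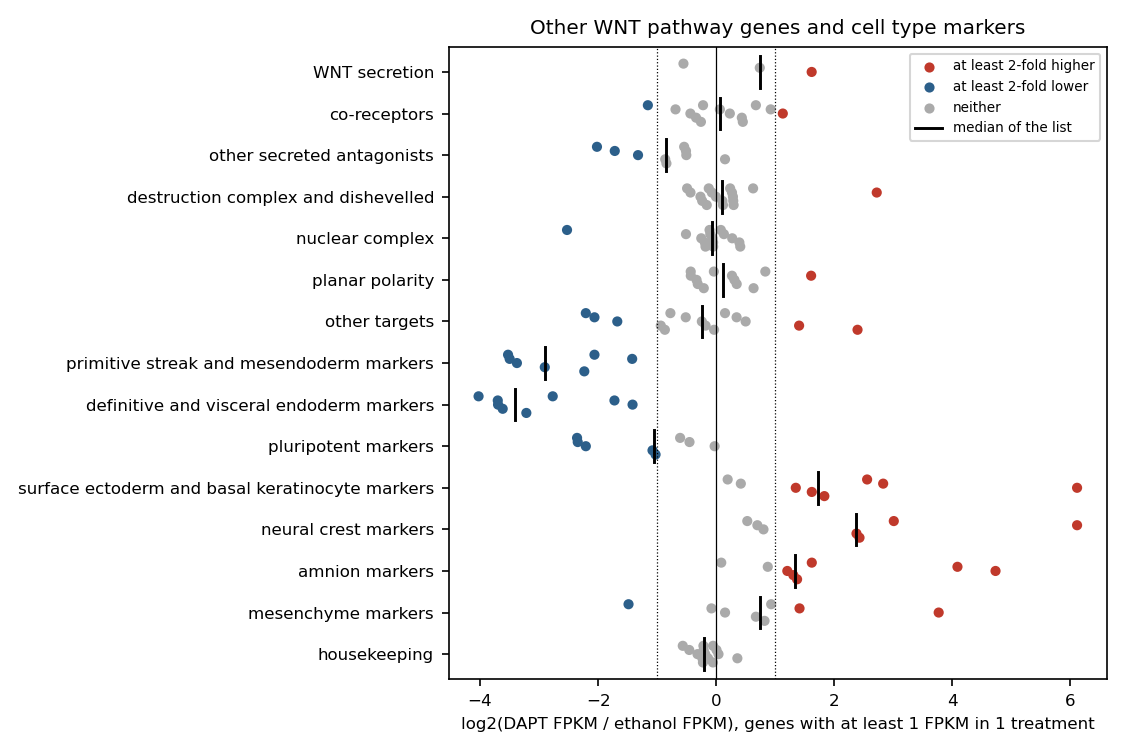
Log2 ratio of DAPT FPKM to ethanol FPKM of each gene with at least 1 FPKM in 1 treatment, for 7 lists of other WNT pathway genes, 7 lists of cell type markers and housekeeping genes, with a black bar at each list's median and dotted lines at 2-fold. Medians of the pathway lists lie between -0.84 (other secreted antagonists) and 0.74 (WNT secretion, a list of 3 that includes NOTUM). Those of the primitive streak and endoderm markers lie at -2.90 and -3.42.

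Genes that Notch is known to switch on were read as well, since DAPT acts on that pathway. HEY1 had 9.37 FPKM with DAPT and 3.79 with ethanol, and HEY2 2.58 and 5.85. So of 6 such genes at or above 1 FPKM, 1 was higher and 1 lower, beside 5.15% and 5.81% of all genes. HES1, the most abundant, had 14.5 and 12.7 FPKM. HES5 was under 1 FPKM in both treatments, at 0.0784 and 0.188. HEY1 also stands on the amnion list.

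The table gives no counts, but its low values bear on precision. For genes with 1 known transcript over 800 bases and under 0.2 FPKM, FPKM was multiplied by transcript length. Within a window set at 0.008 to 0.020 FPKM kb, the median was 0.0148 with DAPT and 0.0131 with ethanol. Below the window lay 13 genes with DAPT and 22 with ethanol. These medians depend on the window, and would be the worth of about 1 fragment if the values in it are single fragments. On that rough reading, for which the table has no direct check, the 15 genes past 2-fold had at least 24 fragments in either treatment, the fewest being DKK4 and SFRP5 with DAPT at about 24 and 26. WNT4 with ethanol had about 1 and WNT1 about 6, so their ratios rest on very few fragments. Transcript length and GC content of the 7 higher genes had medians of 3948 bases and 59.7%, of the 8 lower genes 2114.5 bases and 55.6%, and of the 26 others 3885 bases and 52.5%. Over all genes the higher had a median length of 4228 bases and the lower 2343.5. Their median GC content was 46.9% and 54.6%, the opposite order to that of the 7 and 8 genes. These all-gene medians cover the 84.6% of higher and 87.1% of lower genes found in the reference. A part of length or GC content in the ratios was not tested.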

How the data were processed

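Stranded mRNA of H1 hESCs on day 10 was sequenced by the authors from 3 ethanol and 3 DAPT libraries. The authors mapped reads with TopHat 2.0.6 to hg19 and computed expression with Cufflinks. The FPKM values in the deposited workbook were computed by the authors, as 1 value per treatment over its libraries. For annotation, library scaling and strand setting the sources used here give nothing. The workbook also holds the authors' fold changes, test statistics, p-values, q-values and significance marks, which were not used. Other columns of values per sample numbered 0. Total counts per library are unknown, so no interval or detection limit is given.

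Groups were taken from the sample labels. Ratios were computed in Python 3.11.15 with pandas 2.3.3 and numpy 2.4.6 and drawn with matplotlib 3.10.9. The call needs a ratio of at least 2 or at most 0.5 and at least 1 FPKM in 1 treatment. It was run on simulated data whose planted changes lay well past the line. That run gives no check of genes near the line or of the spread between libraries. Named genes are all 53 chosen by symbol and, of each other pathway list, up to 4 past 2-fold and the 2 others with the highest FPKM in either treatment, with exceptions stated. The result of 1 gene of the list of further WNT targets is not reported here, and it is left out of that list's counts. GPR124 stands in the table under that older symbol, as do T and AES. Genes and lists were chosen with earlier results of these data known. Loci are as in the table (hg19, starts counted from 1). Transcript length and GC content came from GENCODE and were found by symbol, or by a RefSeq synonym, for all 41 genes at or above the floor, and promoters from RefSeq, GRCh38.p14. Alternatives were other floors, folds, pseudocounts and scalings, rows with a completed test by the authors, and rows that share no locus or symbol.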

Additional observations from a re-analysis of the deposited data

How the results depend on the processing

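No alternative turned the direction of any of the 41 ratios, but none of them could have done so. An equal pseudocount keeps the sign, and floors, folds and row choices leave a ratio as it is. Both scalings moved the log2 ratios by less than the smallest of the 41 (ZNRF3 at -0.063). The alternatives therefore give no check of direction. Of the 7 higher and 8 lower genes, with 1477 genes past 2-fold in all, counts moved as follows. With no floor 11 were higher, and 3439 genes in all were past 2-fold. With a pseudocount of 1 FPKM 4 were higher and 4 lower (844 in all), and WNT6, WNT9A, WNT10A, WNT11, FZD4, RSPO2 and NKD2 were no longer past 2-fold. At 1.5-fold 13 were higher (3040 in all), and at 3-fold 3 were higher and 4 lower (741 in all). Over rows that share no locus or symbol, 35 genes remained and their median log2 ratio was 0.2472 instead of 0.1393. WNT11 was not called with a pseudocount of 0.1 FPKM, and WNT8B was called after scaling to the upper quartile. The log2 offsets between treatments that the scalings removed were 0.00063 (median) and -0.019 (upper quartile). No paired analysis was possible because the table gives 1 pooled value per treatment. For the same reason no replicate could be left out, and how far any ratio exceeds the spread between libraries cannot be known from these values. Low FPKM limits SFRP4, WNT4, RSPO1 and WNT1, among others.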

Other observations

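Beside WNT1, some genes of the neural tube list had little mRNA with DAPT and still less with ethanol, while its most abundant genes, OTX2 and SOX2, did not. Its 3 genes at or above 1 FPKM had a median log2 ratio of -0.10, with OTX2 at 19.8 and 21.2 FPKM, SOX2 at 23.1 and 31.6 and PAX6 at 2.57 and 1.17. LMX1A, a roof plate factor that works with WNT1 in midbrain, had 0.781 FPKM with DAPT and 0.0461 with ethanol. LMX1B had 0.421 and 0.0178 FPKM, EN1 0.0755 and 0.0218, EN2 0.0569 and 0.00507, and NEUROG1 0.564 with DAPT and was listed at 0 with ethanol. SOX1, an early marker of the whole neural plate, had 0.0932 and 0.0935 FPKM. The genes from LMX1A to SOX1 were under 1 FPKM in both treatments and so were not called, and they were named after their values were seen.

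The co-receptor pair of WNT7A and WNT7B and its ligand stood on opposite sides. GPR124 had 9.23 FPKM with DAPT and 20.6 with ethanol and RECK, its partner, 3.20 and 5.15, while WNT7B had 4.59 and 0.507. RECK was within 2-fold and was named after its values were seen. Likewise NKD1 and NKD2, paralogues with the same known role, had log2 ratios of 0.85 and -1.52.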
